A study of Mus musculus and Rattus norvegicus with 12 samples.

Results

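The 9 genes analysed here belong to the renin-angiotensin and endothelin systems and were followed through 2 cardiac experiments on Jmjd4, which encodes a JmjC-domain oxygenase. They are Agt, Ace, Agtr1a and Agtr2 of the renin-angiotensin system and Edn1, Edn3, Ece1, Ednra and Ednrb of the endothelin system, and they were taken as the rows of each count table with one of these symbols, case ignored. All 9 had a row among the 54087 gene symbols of the mouse heart table and among the 28909 of the rat cell table. The mouse groups were hearts with floxed Jmjd4 alleles (Jmjd4f/f) and no Cre transgene (flox, n = 3) and hearts with the same alleles and the MCM transgene, a tamoxifen-inducible Cre driven in cardiomyocytes by the Myh6 promoter (cKO, n = 3). Both were given tamoxifen, and the apex was taken at day 14. The flox mice lack the transgene, so effects of Cre and of the deletion cannot be told apart. The rat groups were neonatal rat ventricular cardiomyocytes (NRVCs) from 1-day-old Sprague-Dawley rats, treated for 48 h with siRNA, either the control siNC (n = 3) or siJmjd4, directed at Jmjd4 (n = 3). The age, sex and strain of the mice were not given in the sources used here, nor was whether the rat replicates were separate isolations, so their p-values may measure technical spread only.

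Renin cleaves angiotensinogen, the product of Agt, to angiotensin I, and angiotensin-converting enzyme (Ace) trims that to angiotensin II, which acts on the AT1 receptor (Agtr1a and Agtr1b in rodents) and on the AT2 receptor (Agtr2). Endothelins are made as longer precursors, cut by endothelin-converting enzyme (Ece1), and bind the receptors ETA (Ednra) and ETB (Ednrb). Both AT1 and ETA receptors couple to Gq, and in heart tissue they are known for constriction of vessels, growth of cardiomyocytes and activation of fibroblasts.

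The 12 libraries held 57174654 to 82187009 counts. Levels are given in CPM, counts scaled to the TMM-adjusted library size, and a gene was called when its Benjamini-Hochberg adjusted p over all genes tested was under 0.05 in edgeR's quasi-likelihood test. Jmjd4 itself ranged from 8.04 to 19 CPM in flox and from 4.92 to 9.63 CPM in cKO hearts, with a log2 difference of -0.90 (SE 0.44, adjusted p = 0.3973). In NRVCs it ranged from 0.982 to 4.4 CPM in siNC and from 3.43 to 3.58 CPM in the libraries labelled siJmjd4, with a log2 difference of 0.25 (adjusted p = 0.7698), so lower Jmjd4 was not detectable there and directions below are those of the labels. Flox replicate 3 stood apart, with 41.7% of its counts from mitochondrial genes against 14.2% to 24.1% in the other hearts and 1485 tested genes at 0 against 125 to 503. In the rat, siNC replicate 3 had 461 tested genes at 0 against 78 to 137. Both libraries, like cKO replicate 2 and siJmjd4 replicate 1, had relatively fewer counts for genes with long transcripts. The heart samples are called cardiomyocytes in one label, yet the markers of other cell types were present, with fibroblast markers summing to 1680 to 2520 CPM in flox and 3710 to 4800 CPM in cKO hearts. In NRVC libraries fibroblast markers summed to 29400 to 39100 CPM and cardiomyocyte markers to 10500 to 21000 CPM. These sums are over different genes and are not scaled by length, so they do not give the proportions of the cell types.

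In the heart, 8 of the 9 genes had enough counts to be tested, and none was called, where 0.508% of all 18094 genes tested were. Ace and Edn1 were higher in all 3 cKO hearts than in any flox heart and Agtr1a was lower in all 3. These are 3 of 8 genes without overlap, and 26.1% of all tested genes had none, 14.9% higher and 11.2% lower in cKO. The unadjusted p was under 0.05 for these 3 of 8 genes and for 15% of all tested genes. The median log2 difference of the 8 genes was 0.08, against 0 over all genes.

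The promoters of Ace and Edn1, the pair with higher levels in every cKO heart, are shown with the letters of 5 motifs searched on both strands. They are the 250 bases before each RefSeq start on GRCm38.p6, Ace at chr11:105967698-105967947 and Edn1 at chr13:42301226-42301475, both on the plus strand and printed 5′ to 3′. Capitals mark matches to TATAAA, the core of a promoter element bound by TBP, to GGGCGG, the GC box bound by Sp1, to TGANTCA, which AP-1 factors bind, to CATTCC, which the TEAD family binds, and to AGATAA, which factors of the Gata family bind.
Ace: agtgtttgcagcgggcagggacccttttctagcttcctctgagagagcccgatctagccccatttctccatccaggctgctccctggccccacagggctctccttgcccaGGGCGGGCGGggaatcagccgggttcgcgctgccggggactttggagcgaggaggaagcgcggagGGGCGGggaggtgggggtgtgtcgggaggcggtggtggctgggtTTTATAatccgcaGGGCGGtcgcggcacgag
Edn1: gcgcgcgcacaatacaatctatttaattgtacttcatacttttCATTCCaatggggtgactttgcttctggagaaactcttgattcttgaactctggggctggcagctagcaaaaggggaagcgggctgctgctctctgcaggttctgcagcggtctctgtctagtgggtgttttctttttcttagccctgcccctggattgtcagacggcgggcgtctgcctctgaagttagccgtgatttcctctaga
Ace held 4 GC-box matches, at 140, 136, 75 and 18 bases before its start and the first pair overlapping, and a TATA-box match read on the opposite strand at 31 bases. Edn1 held 1 TEAD match, at 207 bases, and none of the other 4 motifs in this window. Bases after the RefSeq start were not searched for either gene, so motifs there would be missed. Over 32851 mouse promoters of this length, a GC box was present in 32.7%, a TATA box in 12.4%, a TEAD match in 12.6%, an AP-1 match in 6.75% and a GATA match in 9.99%. The GC content was 67.2% for Ace and 50.4% for Edn1. Agt also held a TATA-box match, 30 bases before its start. RefSeq lists a further start inside Ace, known for the form made in germ cells, and counts per gene do not separate the forms.

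Of the angiotensin precursor and its converting enzyme, only Ace stood apart between the heart groups. Agt, the precursor gene (chr8:124556534-124569706, minus strand, GENCODE M21 on GRCm38), was at 5.28, 5.37 and 8.19 CPM in flox replicates 1, 2 and 3. The cKO hearts, in the same order of replicates here and below, held 4.46, 6.62 and 5.86 CPM. The groups overlapped, with a log2 difference of -0.15 (SE 0.33, 95% interval -0.93 to 0.62, adjusted p = 0.8882). Ace (chr11:105967945-105989964, plus strand) was at 59.3, 46.2 and 5.82 CPM in flox and at 238, 201 and 323 CPM in cKO hearts. Every cKO heart lay above every flox heart, and flox replicate 3 was far below the other two. The means were 37.11 ± 27.88 and 254.2 ± 62.58 CPM (SD, n = 3 each), a fitted 6.84-fold difference with a log2 value of 2.78 (SE 0.81, 95% interval 0.86 to 4.69) and an adjusted p of 0.1773. Without flox replicate 3 the log2 difference was 2.27 and the adjusted p was 0.01076, where 7.19% of all genes tested were called. Antisense locus Gm11651 shares 295 exon bases with Ace and has no row of its own in the table. Whether counting used strand is not given, so reads of the 2 loci cannot be told apart.

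Ace is known to be expressed by endothelial cells and by some macrophages and fibroblasts. In bulk tissue, more cells of a type and more RNA per cell cannot be told apart. The 10 endothelial markers had a median log2 difference of 0, none was called, and they summed to 537 to 1310 CPM in flox and 984 to 1180 CPM in cKO hearts. Of the 9 macrophage markers 1 was called higher, where 0.37% of all genes were, and the median was 1.04. Their sums were 399 to 852 CPM in flox and 849 to 1190 CPM in cKO hearts. Of the 10 fibroblast markers none was called and the median was 1.12. Without flox replicate 3, 7 of the macrophage and 3 of the fibroblast markers were called higher, with medians of 1.61 and 1.33. In that fit 0 endothelial markers were called, with a median of -0.17, and 7.19% of all genes tested were. No marker of these 3 lists was at 0 in all heart libraries, and their part in the Ace difference was not tested.

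The angiotensin receptors differed in level. Agtr1a, the main AT1 receptor gene of the mouse (chr13:30336441-30382867, plus strand), was at 25, 27 and 25.7 CPM in flox and at 6.01, 0.915 and 4.95 CPM in cKO hearts. The 3 flox hearts were close together, flox replicate 3 included, and every cKO heart was below them, with cKO replicate 2 the lowest. The means were 25.89 ± 0.9911 and 3.96 ± 2.689 CPM (SD, n = 3 each), a fitted log2 difference of -2.71 (SE 0.66, 95% interval -4.27 to -1.14), or 6.53-fold lower, with an adjusted p of 0.1255. Agtr1b, its near-identical relative, was at 0 counts in every heart and NRVC library. The sum of cardiomyocyte markers was 49000 to 76600 CPM in flox and 34200 to 38600 CPM in cKO hearts, with a median log2 difference of -1.09 over 9 markers, 0 of them called. That median was -0.21 without flox replicate 3, with 1 marker called lower where 7.19% of all genes were called. It was -0.20 with total counts alone. The 9 smooth muscle and pericyte markers summed to 633 to 1080 CPM in flox and 497 to 717 CPM in cKO hearts. Of these 1 was called higher, where 0.37% of all genes were. Their median was 0.10, and -0.42 without flox replicate 3. The median of the fibroblast markers was 1.12. The part of any of these markers in the Agtr1a difference was not tested. Agtr2, the AT2 receptor gene (chrX:21484544-21489164, plus strand), had 0 counts in all 3 flox hearts and 5, 5 and 0 counts in cKO hearts. A count of 0 allows up to 0.0382, 0.0389 and 0.0847 CPM in flox replicates 1, 2 and 3, for counting error only, and Agtr2 was too low to be tested.

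**Figure D1:**
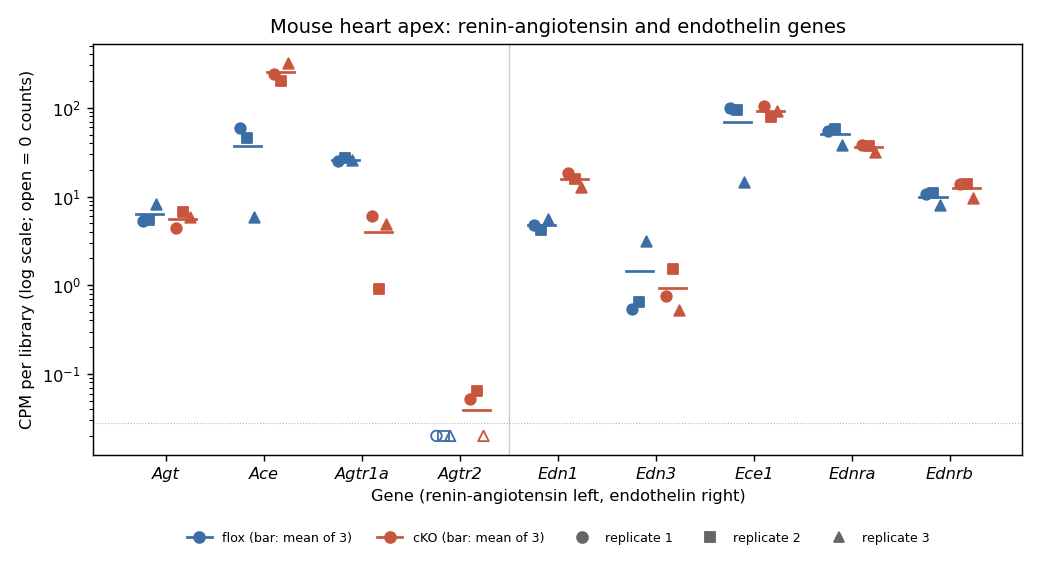
Level of each gene in the 6 mouse heart libraries (CPM, log axis), with flox in blue, cKO in red and circles, squares and triangles for replicates 1, 2 and 3; bars are means of 3 and open symbols below the dotted line mark 0 counts. Ace and Edn1 lie higher in all 3 cKO hearts and Agtr1a lower, while the groups of Agt, Edn3, Ece1, Ednra and Ednrb overlap.

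Of the endothelin ligand genes, Edn1 was not called although its groups did not overlap, and Edn3 was low. Edn1, the precursor of endothelin-1 (chr13:42301476-42307990, plus strand), was at 4.75, 4.22 and 5.51 CPM in flox and at 18.5, 15.9 and 12.7 CPM in cKO hearts. No flox heart reached the lowest cKO heart, and flox replicate 3 was level with the other flox hearts. The means were 4.822 ± 0.648 and 15.68 ± 2.867 CPM (SD, n = 3 each), a fitted 3.25-fold difference with a log2 value of 1.70 (SE 0.29, 95% interval 1.01 to 2.40) and an adjusted p of 0.06539. It had the smallest p of the 8 genes. Without flox replicate 3 the log2 difference was 1.81 and the adjusted p was 0.01277. An antisense locus, Gm47118, shares 35 exon bases with Edn1 and likewise has no row. Edn3, the precursor of endothelin-3 (chr2:174760619-174784042, plus strand), was at 0.534, 0.649 and 3.13 CPM in flox and at 0.755, 1.53 and 0.525 CPM in cKO hearts. Flox replicate 3 was the highest, and the log2 difference of -0.61 (SE 0.82, adjusted p = 0.8038) became 0.66 without it.

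The enzyme that processes both ligands did not separate the groups. Ece1 (chr4:137862237-137965229, plus strand) was at 99.7, 94.8 and 14.4 CPM in flox and at 105, 78.5 and 91.4 CPM in cKO hearts. Apart from flox replicate 3 the 5 hearts were between 78.5 and 105 CPM. The log2 difference was 0.39 (SE 0.67, 95% interval -1.19 to 1.98, adjusted p = 0.8515) and was -0.08 without flox replicate 3.

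Both endothelin receptors were present and neither was called. Ednra, which encodes ETA, the receptor of muscle cells (chr8:77663031-77724464, minus strand), was at 54.6, 58.4 and 38.1 CPM in flox and at 38.4, 36.7 and 32 CPM in cKO hearts. The groups overlapped only through flox replicate 3, and the log2 difference was -0.50 (SE 0.31, 95% interval -1.22 to 0.22, adjusted p = 0.5147). Without flox replicate 3 it was -0.66 with an adjusted p of 0.09095. The locus 4933431K23Rik on the other strand shares 91 exon bases with Ednra and has no row. Ednrb, which encodes ETB, known in endothelium (chr14:103814625-103844402, minus strand), was at 10.8, 11 and 7.93 CPM in flox and at 13.8, 13.9 and 9.5 CPM in cKO hearts. The groups overlapped, with a log2 difference of 0.32 (SE 0.30, 95% interval -0.39 to 1.03, adjusted p = 0.6959).

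**Figure D2:**
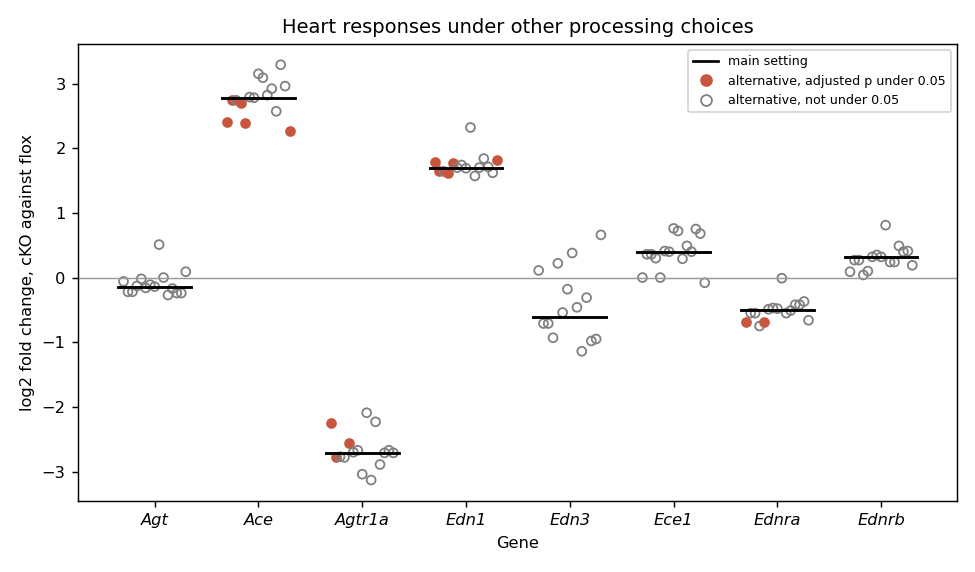
Log2 difference (cKO minus flox) of each heart gene under the reported test and its alternatives, with a bar for the reported value and filled circles for alternatives in which the gene was called. Ace, Edn1 and Agtr1a keep their direction in all 15 alternatives, and Agt, Edn3 and Ece1 cross 0.

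Over 15 alternatives in processing, Ace was called in 5 with log2 differences of 2.27 to 3.29, Edn1 in 5 with 1.57 to 2.32, Agtr1a in 3 with -3.13 to -2.09, and Ednra in 2 with -0.75 to -0.01. The calls of Agtr1a came from DESeq2's Wald test, limma voom with sample quality weights and the fit without flox replicate 3 and cKO replicate 2. In these 3, 9.66%, 21.3% and 19.1% of all genes were called. Ednra was called in the last 2. An offset for transcript length called Ace (adjusted p = 0.04491) and Edn1 (adjusted p = 0.02131), with 4.76% of all genes.

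Levels between genes were compared per kilobase of merged exons, as mean ± SD of CPM per kb (n = 3). In flox hearts the order was Ece1 at 13.1 ± 9.04, Agtr1a at 9.29 ± 0.356, Ednra at 9.2 ± 1.98, Ace at 7.02 ± 5.27, Agt at 3.32 ± 0.874, Ednrb at 2.32 ± 0.403, Edn1 at 2.25 ± 0.303 and Edn3 at 0.35 ± 0.357 CPM per kb. The ranges of Ece1, Agtr1a, Ednra, Ace and Agt overlapped between neighbours in that order, as did those of Ednrb and Edn1. Agt lay above Ednrb in every flox heart and Edn1 above Edn3. The order depended on flox replicate 3, where Ece1 was at 2.71, Ace at 1.1 and Edn3 at 0.762 CPM per kb. In flox replicates 1 and 2, Ece1 was at 18.8 and 17.9, Ednra at 9.97 and 10.7, Ace at 11.2 and 8.74 and Agtr1a at 8.98 and 9.68 CPM per kb. Ece1 was then above Ednra, Ace and Agtr1a. The range of Ace overlapped those of Ednra and Agtr1a, and Ednra lay above Agtr1a in both hearts. Edn3 was at 0.13 and 0.158 CPM per kb there. In cKO hearts Ace led at 48.1 ± 11.8, followed by Ece1 at 17.3 ± 2.47, Edn1 at 7.33 ± 1.34, Ednra at 6.52 ± 0.605, Agt at 2.99 ± 0.58, Ednrb at 2.9 ± 0.586, Agtr1a at 1.42 ± 0.965 and Edn3 at 0.227 ± 0.127 CPM per kb. The ranges of Edn1 and Ednra overlapped there, as did those of Agt and Ednrb and those of Agtr1a and Edn3. In cKO replicate 2, Edn3 was at 0.371 and Agtr1a at 0.329 CPM per kb. Ace lay above Ece1 in every cKO heart.

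Ratios of counts within a library need no scaling between libraries, and 3 pairs with transcripts of like length were compared after their values had been seen. The Ace to Ece1 ratio (longest transcripts of 4906 and 4816 bases) was 0.595, 0.488 and 0.405 in flox and 2.27, 2.56 and 3.54 in cKO hearts. All 3 cKO values were above all flox values, flox replicate 3 no longer stood far from its group, and the mean log2 difference was 2.49, or 5.6-fold. The Edn1 to Agtr1a ratio (2139 and 2199 bases) was 0.19, 0.156 and 0.215 in flox and 3.07, 17.3 and 2.57 in cKO hearts, a mean log2 difference of 4.80, or 27.8-fold, which was 3.92 on the log2 scale without cKO replicate 2. Agtr1a thus exceeded Edn1 in every flox heart and Edn1 exceeded Agtr1a in every cKO heart. The Ednra to Ednrb ratio (3625 and 4107 bases) was 5.07, 5.29 and 4.8 in flox and 2.78, 2.65 and 3.37 in cKO hearts, 1.73-fold lower. The heart ratios are given as a description with no test, since the pairs were chosen after their values had been seen. For Edn1 to Agtr1a, the separation of the groups followed from that of each gene alone.

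**Figure D3:**
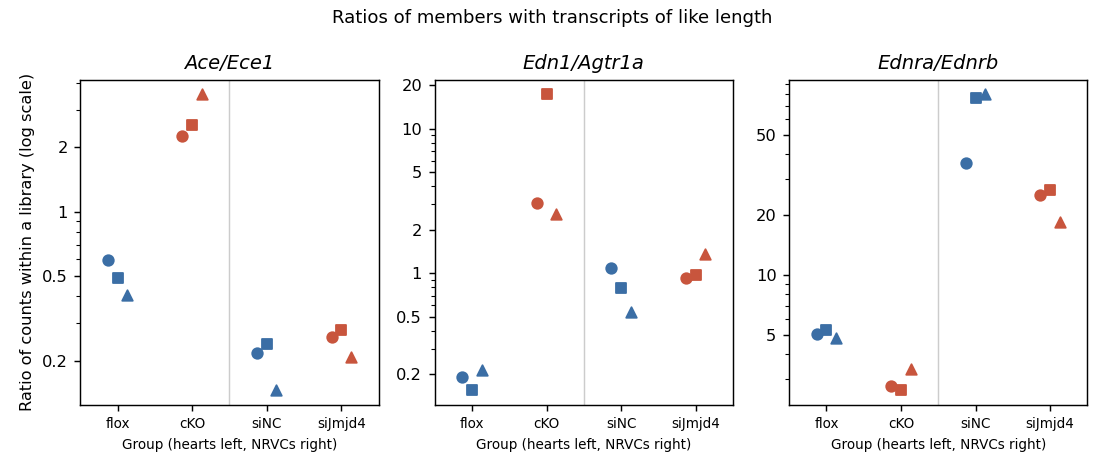
Ratios of counts within each library (log axis) for 3 pairs of genes, hearts to the left and NRVCs to the right of the grey line; symbols mark replicates 1, 2 and 3. The heart groups do not overlap in any of the 3 ratios, and in NRVCs the groups separate for Ednra to Ednrb alone.

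In NRVCs, 7 of the 9 genes were tested and none was called, where 0.00645% of all 15497 genes tested were. At an unadjusted p under 0.05 there were 8.71% of all genes and 1 of these 7, Ednrb. That gene was kept for its level in the siJmjd4 libraries, so its p is no evidence of a difference. Ednra and Ednrb were higher in all 3 siJmjd4 libraries than in any siNC library, 2 of 7 genes without overlap, where 40.2% of all tested genes had none, 22.4% higher and 17.8% lower in siJmjd4. No alternative in processing called any of the 7 genes, while over all genes the Wald test called 1.08%, voom 3.94%, the fit without siNC replicate 3 0.57% and the fit without siNC replicate 3 and siJmjd4 replicate 1 15.8%. The median log2 difference of the 7 genes was 0.38, against 0.01 over all genes.

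Agt was low in NRVCs, at 0.787, 0.911 and 1.15 CPM in siNC and 0.821, 0.717 and 0.906 CPM in siJmjd4 replicates 1, 2 and 3, with a log2 difference of -0.22 (adjusted p = 0.6937). Ace was at 28.7, 33.3 and 17 CPM in siNC and at 35.1, 37.4 and 30.1 CPM in siJmjd4 libraries, with a log2 difference of 0.38 (SE 0.27, adjusted p = 0.4212). The groups of both genes overlapped, and siNC replicate 3 was the lowest of all for Ace. Agtr1a was at 37.5, 54.9 and 30.2 CPM in siNC and at 46.3, 51 and 46.6 CPM in siJmjd4 libraries, with a log2 difference of 0.23 (adjusted p = 0.5474). Agtr2 had 8, 16 and 8 counts in siNC and 8, 8 and 16 counts in siJmjd4 libraries, too few to be tested. The AT1 receptor gene was thus well detected in the libraries of both groups, and the AT2 receptor gene had at most 16 counts in a library. Bulk counts do not show which cells of the culture carried either receptor gene.

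Edn1 was at 41, 43.7 and 16.4 CPM in siNC and at 42.7, 49.5 and 62.8 CPM in siJmjd4 libraries, with a log2 difference of 0.62 (SE 0.38, 95% interval -0.31 to 1.54, adjusted p = 0.3899). The groups overlapped, with siNC replicate 3 the lowest. Edn3 had 0 counts in all 6 libraries, which allows up to 0.0347 to 0.0566 CPM per library. Ece1 was at 132, 140 and 116 CPM in siNC and at 137, 134 and 146 CPM in siJmjd4 libraries, and its log2 difference of 0.10 had a 95% interval of -0.23 to 0.43 (adjusted p = 0.647).

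Of the receptors, Ednra was at 26, 28.4 and 12 CPM in siNC and at 33.6, 34.7 and 30.3 CPM in siJmjd4 libraries. The groups did not overlap, and siNC replicate 3 was the lowest, with a log2 difference of 0.57 (SE 0.33, 95% interval -0.22 to 1.36, adjusted p = 0.3794). Ednrb was low, with 43, 24 and 8 counts in siNC and 116, 82 and 118 counts in siJmjd4 libraries, or 0.72, 0.37 and 0.151 CPM against 1.34, 1.31 and 1.64 CPM. The lowest siJmjd4 library was above the highest siNC library, and the log2 difference was 1.78 (SE 0.58, 95% interval 0.38 to 3.18, adjusted p = 0.379), 3.44-fold. Ednrb passed the filter on low counts through the siJmjd4 libraries, so its p and interval are given as a description. Its log2 difference was 1.39 without siNC replicate 3 (adjusted p = 0.09567) and 2.44 without siNC replicate 1 (adjusted p = 0.2462). The Ednra to Ednrb ratio was 36.1, 76.8 and 79.8 in siNC and 25, 26.6 and 18.4 in siJmjd4 libraries. The groups did not overlap, and this is given as a description with no test, since Ednrb was kept for its level in the siJmjd4 libraries and the ratio was chosen after its values had been seen. The Ace to Ece1 and Edn1 to Agtr1a ratios overlapped between the groups.

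**Figure D4:**
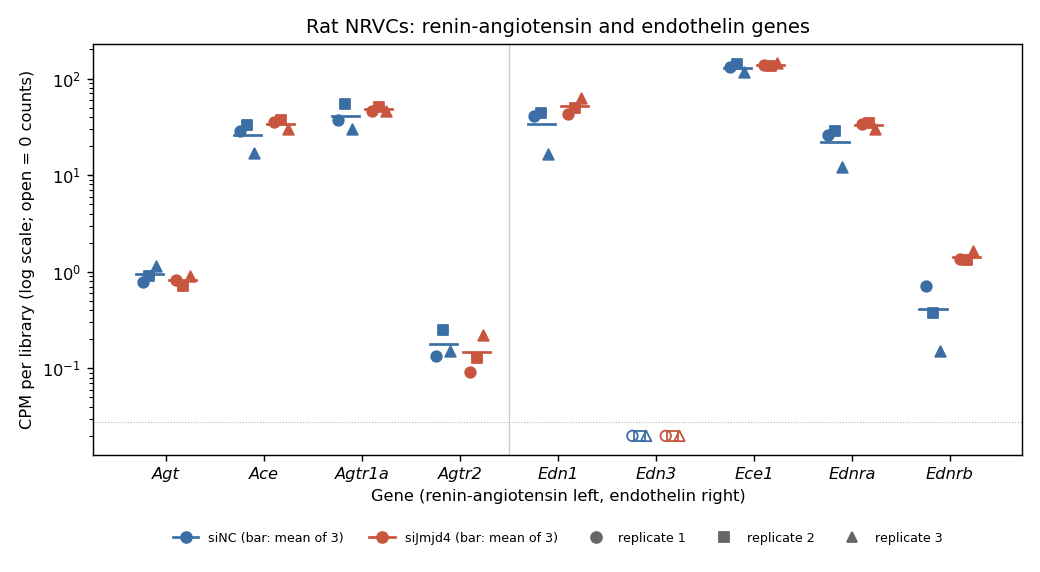
Level of each gene in the 6 NRVC libraries (CPM, log axis), siNC in blue and siJmjd4 in red, with circles, squares and triangles for replicates 1, 2 and 3, bars for means of 3 and open symbols for 0 counts. Ednra and Ednrb lie higher in the 3 siJmjd4 libraries, and the other genes overlap.

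The heart and NRVC responses were compared in 1 model of all 12 libraries, with genes paired by symbol, for the 7 genes tested in both. None was called for a difference, where 1.79% of all genes were. The heart response minus the NRVC response was -2.93 on the log2 scale for Agtr1a (SE 0.73, adjusted p = 0.06876), 2.39 for Ace (SE 0.87, adjusted p = 0.1955) and 1.09 for Edn1 (SE 0.50, adjusted p = 0.3088). For the receptors of endothelin it was -1.07 for Ednra (SE 0.45, adjusted p = 0.2788) and -1.46 for Ednrb (SE 0.61, adjusted p = 0.2689), and for Agt and Ece1 it was 0.07 and 0.28. Without flox replicate 3, Ace (1.87, adjusted p = 0.02692) and Agtr1a (-2.95, adjusted p = 0.04372) were called, with 7% of all genes. Without cKO replicate 2, Agtr1a was called at -2.46 (adjusted p = 0.01982), with 1.01% of all genes. The systems differ in species, age, tissue and method of targeting, which cannot be told apart here.

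**Figure D5:**
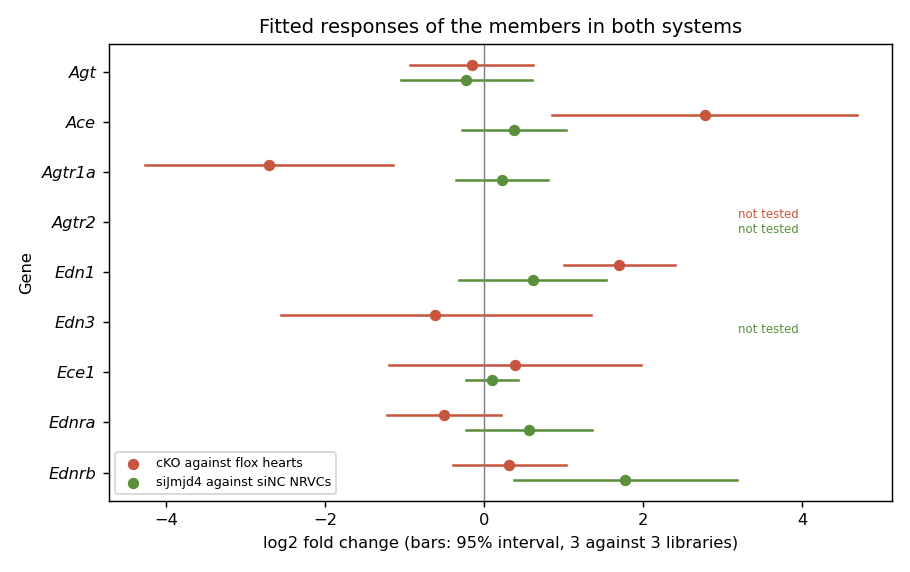
Log2 difference of each gene in hearts (cKO minus flox, red) and NRVCs (siJmjd4 minus siNC, green), with the 95% interval of the fit. The heart intervals of Ace, Edn1 and Agtr1a leave out 0. So does the NRVC interval of Ednrb, but that gene passed the filter through its siJmjd4 libraries, and its interval is a description only.

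The 4 lists of other genes of these pathways were counted beside these 9. Of 14 other renin-angiotensin genes tested in the heart, 0 were called and the median log2 difference was -0.06. Those with the smallest p were Atp6ap2, the prorenin receptor, at 18.9, 17.7 and 18.6 CPM in flox and 30.3, 33.7 and 29 CPM in cKO hearts (log2 0.75, adjusted p = 0.2428), Nln, which encodes neurolysin, a peptidase (0.78, adjusted p = 0.3058), and Mas1, the receptor of angiotensin-(1-7) (-1.78, adjusted p = 0.3807). The renin gene Ren1 and the aldosterone and corticosterone synthesis genes Cyp11b2 and Cyp11b1 were at 0 in all 6 hearts.

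Of 7 other endothelin and kinin genes tested in the heart, 1 was called lower, where 0.138% of all genes were. Mme encodes neprilysin, a membrane peptidase that cleaves kinins, natriuretic peptides and endothelins, and was at 8.49, 10.5 and 9.99 CPM in flox and 0.451, 1.14 and 0.749 CPM in cKO hearts. Every cKO heart was below every flox heart, and Mme fell by 3.63 on the log2 scale (SE 0.43, adjusted p = 0.03867). It was also called without flox replicate 3, whereas no gene of the table was called when any 1 of the other 5 hearts was left out. Cpn2, a subunit of carboxypeptidase N, differed by -2.49 (adjusted p = 0.1423). Ece2, an enzyme related to Ece1, was at 0.725, 0.0519 and 0 CPM in flox and 2.53, 2.67 and 5.28 CPM in cKO hearts. Bdkrb2, the bradykinin B2 receptor gene, was at 1.58, 0.467 and 0 CPM in flox and 3.79, 2.36 and 2.63 CPM in cKO hearts. Both passed the filter on low counts through the cKO hearts, neither was called, and their values are given as a description.

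Among 26 genes of receptor coupling and desensitisation, 0 were called in the heart and the median was 0.23. Rgs2, which ends Gq signals, was at 29.7, 29.7 and 73.1 CPM in flox and 6.98, 11 and 8.34 CPM in cKO hearts (log2 -2.33, adjusted p = 0.09134), with no overlap. Arrb2, a beta-arrestin, differed by 1.01 (adjusted p = 0.1945) and Prkcd, a protein kinase C, by 1.35 (adjusted p = 0.2052). Among 14 genes known to be induced through these receptors, 1 was called higher, where 0.37% of all genes were, and 11 lay higher in all 3 cKO hearts, where 14.9% of all genes did. Their median log2 difference was 2.11, and it was 2.89 without flox replicate 3 and 2.96 with total counts alone, which moved the median of all genes to 0.54. The medians of the fibroblast, macrophage and epicardial markers were 1.12, 1.04 and 1.02, and 1.33, 1.61 and 0.86 without flox replicate 3. The part of these markers in the level of this list was not tested. Ctgf, a matricellular protein gene, rose from 60.2, 46.9 and 32.5 CPM in flox to 881, 1200 and 1180 CPM in cKO hearts, by 4.55 on the log2 scale (SE 0.46, adjusted p = 0.02551), a call that was likewise lost without any 1 heart other than flox replicate 3. Spp1, which encodes osteopontin (4.31, adjusted p = 0.06085), Acta1, skeletal actin (3.19, adjusted p = 0.06085), and Postn, periostin (4.95, adjusted p = 0.06149), were not called. This list was chosen with earlier results of these libraries known, so its direction is not independent evidence. Without flox replicate 3, 15 of 64 tested genes on the 4 lists were called, where 7.19% of all genes were. Of these, 10 were higher and 5 lower. Among the higher calls, 9 were from the 14 tested genes of this same list, so the pooled count is not independent evidence either. Of 15 renin-angiotensin genes 0 were called higher and 1 lower, and of 9 endothelin and kinin genes 0 and 2. Of 26 coupling genes 1 was called higher and 2 lower.

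In NRVCs, 0 genes of the 4 lists were called, with 12, 7, 26 and 14 tested and median log2 differences of 0.24, -0.27, 0.31 and 0.24. Lnpep, a membrane aminopeptidase known as the receptor of angiotensin IV, was at 0.351, 1.56 and 0.566 CPM in siNC and 3.62, 3.71 and 8.07 CPM in siJmjd4 libraries, with no overlap (log2 2.63, adjusted p = 0.379). The coupling genes with the smallest p were the inositol trisphosphate receptor genes Itpr1 (log2 1.14) and Itpr2 (1.72) and the kinase gene Prkcb (1.09), each with an adjusted p of 0.379. With an offset for transcript length the log2 differences were 1.66 for Lnpep, 0.30 for Itpr1, 0.96 for Itpr2 and 1.02 for Prkcb. Itpr2 was the 1 list gene called without siNC replicate 3 (log2 1.32, adjusted p = 0.04415), where 0.57% of all genes were. Mme was at 8.03, 7.5 and 5.89 CPM in siNC and 8.56, 11.9 and 11.3 CPM in siJmjd4 libraries (log2 0.56, adjusted p = 0.379), with no overlap.

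Among the genes whose pattern over the 6 hearts was most like that of Edn1 were Cd4, Otub2, C3ar1 and Ifit3, with root mean square differences in centred log2 CPM of 0.10, 0.15, 0.17 and 0.17 over 12368 genes compared. The same measure over 6 NRVC libraries and 11784 genes placed Cnnm4, Igsf9b, Cpeb4, Col4a3 and Sema3a nearest to Ednrb, at 0.16, 0.17, 0.19, 0.19 and 0.20.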

How the data were processed

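RNA was measured in 12 libraries, 3 in each of 4 groups taken from the labels. The authors deposited 1 table of counts per species, unnormalized whole numbers for each gene symbol. The submitters' processing notes name HISAT2 2.1.0, StringTie 1.3.4, edgeR 3.20.9, mm10 and rn6 without a role. The strand setting, annotation and counting rules were not given in the sources used here. Genes were filtered with filterByExpr, leaving 18094 mouse and 15497 rat genes, scaled by TMM and tested with edgeR 4.0.16 (quasi-likelihood, robust, R 4.3.3) on the 6 libraries of each species, two-sided, with Benjamini-Hochberg adjustment over all genes. Means are ± SD over 3 libraries. A count of 0 was bounded by 3 counts.

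Members, lists and tests were chosen with earlier results of these data known. All 9 members are named, and from each pathway list the called genes and up to 3 others with the smallest p. From all genes with a mean of at least 1 CPM, the 5 nearest in pattern are named for the member with the smallest p in each species. Some genes these rules take are not reported here. Alternatives were DESeq2 1.42.0 (size factors and the Wald test), total counts, limma 3.58.1 voom with sample quality weights, a minimum mean of 5 CPM, no filter, the replicate number as a block, an offset for the trend of a library with transcript length (span 0.3, lengths known for 80.1% of mouse and 84% of rat genes tested, the latter from the mouse gene), and libraries left out. Replicates differed by 26.1 to 1580 times sampling noise, so none was a duplicate. Positions come from GENCODE M21 and promoters from RefSeq on GRCm38; Agtr1a had no promoter entry. The code was tested on simulated data, where a limit on false calls was required of the quasi-likelihood test, not of the Wald test or voom.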

Additional observations from a re-analysis of the deposited data

How the results depend on the processing

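In the heart, the directions of Ace, Edn1 and Agtr1a held in all 15 alternatives. The signs of Ednra and Ednrb held too, but Ednra came to -0.01 with total counts alone and Ednrb to 0.04 with the length offset. Agt turned to 0.51 with total counts alone, which moved the median of all genes to 0.54, and to 0.09 without flox replicate 3. Edn3 turned to 0.38 with total counts alone, 0.22 with voom, 0.66 without flox replicate 3 and 0.11 without flox replicate 3 and cKO replicate 2, and Ece1 to -0.08 without flox replicate 3. Without 1 library, Edn3 ranged from -1.14 to 0.66 and Ece1 from -0.08 to 0.75. With the length offset in NRVCs, Agt was 0.11 and Ece1 -0.27. For the difference between the systems, Agt ranged from -0.16 to 0.28 without 1 library, with 5 fits below 0, and Ece1 from -0.20, without flox replicate 3, to 0.64. The cause was not tested.

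Against 0 called in the heart, 2 of the 9 genes were called higher with the Wald test, voom, the length offset, without flox replicate 3, and without both flox replicate 3 and cKO replicate 2. Called lower were 1 with the Wald test, 2 with voom and 2 without both libraries, and leaving out 1 library gave 0 to 2 higher. Of the 4 pathway lists, 1 gene was called higher and 1 lower in the heart. Of 61 tested genes on these lists, 13 were called higher and 3 lower with the Wald test, where 9.66% of all genes were. With voom it was 18 and 7, where 21.3% were, and with the length offset 8 and 3, where 4.76% were. Without both libraries it was 17 and 6 of 62, where 19.1% were. Of these higher calls, 9, 11, 8 and 11 in that order were on the list of genes induced through the receptors. It was 0 and 0 with total counts, 3 higher with no filter and 0 lower at a mean of at least 5 CPM. Without 1 library it was 0 to 10 higher and 0 to 5 lower. In NRVCs, against 0 and 0 of 59, there were 2 higher with the Wald test and 4 higher and 1 lower with voom. Over all genes 1.08% and 3.94% were called in these settings. Without siNC replicate 3 and siJmjd4 replicate 1 there were 8 and 7 of 61, where 15.8% of all genes were called. There were 0 to 1 higher without 1 library. For the difference between the systems, 0 to 2 of the 9 genes were called without 1 library.

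Over all heart genes, 67 were called higher and 25 lower. Without flox replicate 3 it was 813 and 560, and 0 and 0 without any other single library. It was 957 and 791 with the Wald test, 2169 and 1690 with voom, 411 and 450 with the length offset, 1793 and 1792 without both libraries, 20 and 0 with total counts, and 104 and 42 with no filter. In NRVCs, against 1 and 0, it was 136 and 32 with the Wald test, 532 and 79 with voom, 77 and 13 without siNC replicate 3, 4 and 0 without siNC replicate 1, 2 and 0 without siNC replicate 2, 0 and 0 without any 1 siJmjd4 library, and 1661 and 809 without siNC replicate 3 and siJmjd4 replicate 1.

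With the replicate number as a block, 0 heart and 0 NRVC genes were called, and 0 higher and 0 lower on the pathway lists. Same-numbered libraries correlated at 0.36, -0.48 and -0.33 in the heart and -0.14, -0.02 and -0.15 in NRVCs, and not every library correlated best with its own number, so the numbers were not taken to pair the samples. Depth limits Agtr2 in both systems and Edn3 and Ednrb in NRVCs.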
